A study of Canis lupus familiaris with 7 samples.

Results

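The genes described here code for the subunits of the proteasome, for the chaperones that help to build it and for the ubiquitin-conjugating enzymes. Members were taken by name. They were the non-control probes whose gene name in the array files began with PSMA, PSMB, PSMC, PSMD, PSME, PSMG or UBE2, without PSMB8 and PSMB9. The rule found 106 of the 43603 probes, for 67 of the 11804 genes with a symbol. The core class (PSMA, PSMB) held 13 genes, the regulatory class (PSMC, PSMD, PSME) 22, the assembly class (PSMG) 3 and the conjugating class (UBE2) 29. A pair of members fit by name alone. PSMC3IP codes for a factor of meiotic recombination and UBE2CBP for a protein that binds UBE2C, and both were kept where the rule put them.

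RNA of 7 primary canine osteosarcomas, a bone cancer, was measured on 1-colour arrays, with 1 array per tumour, in order to compare expression with and without a DLG2 deletion. Per the labels 4 tumours were DLG2 deleted and 3 were DLG2 wild type. The deleted tumours came from dogs of 8, 9, 6 and 7 years, a German Shepherd and Collie cross, a Rottweiler cross, a Greyhound and a Great Pyrenees. The wild-type tumours came from dogs of 12, 10 and 8 years, a Boxer, a Labrador Retriever cross and a Bull Mastiff. The sex label was MC for deleted tumours 1 and 3 and for wild-type tumour 3, and FS for the others. All 7 specimens came from veterinary clinics as tumour tissue with no treatment in the labels, and the study matched them to copy number arrays of the same tumours. How much of DLG2 was lost, and from 1 or both copies, is not in the labels.

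The proteasome is a barrel of stacked rings that cuts proteins into peptides. The PSMA subunits form its outer rings and the PSMB subunits its inner rings, some of which carry the cutting sites. The regulatory particle (PSMC ATPases and PSMD subunits) recognises proteins tagged with ubiquitin, unfolds them and feeds them in, while the PSME proteins are caps that work without ubiquitin. Ubiquitin reaches a protein through an activating enzyme (E1), a conjugating enzyme (E2, the UBE2 genes) and a ligase. Dividing cells use some of these enzymes to remove cell cycle proteins, and interferon exchanges some proteasome subunits and caps for others.

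Per array, 30280 to 34538 probes stood well above background. Over the member genes, wild-type tumours 1 and 2 were the closest pair of arrays, at a median absolute log2 difference of 0.12 where the 20 remaining pairs had 0.22 to 0.49. Over all kept probes their Pearson r was 0.987, and the next closest pair had 0.966. The labels give this pair different breeds and ages, but whether they are separate animals was not tested, and if they were not, n and the wild-type SD below would change. Counted as 1 tumour, they left 2 member probes at an unadjusted p below 0.05 in place of 4, and 0 called. The single DLG2 probe differed by -0.77 on the log2 scale (deleted minus wild type, SE 0.35, limma adjusted p = 0.710) and its groups overlapped, so it does not separate the labels. Of the osteoblast markers, 6 of 11 had a kept probe. COL1A1, COL1A2 and ALPL lay at or above 12.54 on the log2 scale in all 7 tumours. RUNX2 lay between 7.92 and 8.78, BGLAP between 9.75 and 14.19 and PHEX between 6.47 and 8.57. PHEX was well above background on 6 arrays. None of the 6 erythroid genes had a kept probe. The 6 kept osteoblast and the 6 kept osteoclast markers were all lower in deleted tumours, with median differences of -0.55 and -1.45. The 6 kept cartilage markers were all higher, with a median of 0.97. The groups overlapped in each of these genes and 0 were called. The part of these tissues in the member values was not tested. The arrays lay on 5 slides, of which 1 held both groups (deleted tumours 2 and 3 and wild-type tumour 2), and were extracted by the scanner software in 2 sessions.

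Each member was measured by 1 to 5 designed probes of 60 bases. The probes printed here belong to 8 of the members described below, 3 of them with a pair of probes to show what the probes of a gene share, and each has at least 1 reading frame without a stop codon. They are given 5′ to 3′ with their canFam2 position from the files, and a span longer than 60 bases crosses at least 1 intron. Capitals mark bases that another probe of the same gene also holds. Of the UBE2M probes, a pair had the same 60 bases, so that they measured 1 target, and the brighter UBE2M probe, whose values are given below, is another and is not printed, while the PSMD14 probes shared 15 bases at the end of one and the start of the other. The UBE2H probes shared none.
UBE2M, chr1:102472646-102472791, plus strand, 2 probes with this sequence: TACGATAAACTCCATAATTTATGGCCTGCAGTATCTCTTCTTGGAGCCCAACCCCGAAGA
PSMD14, chr36:9975838-9975897, plus strand: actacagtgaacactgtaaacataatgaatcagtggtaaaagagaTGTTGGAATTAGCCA
PSMD14, chr36:9975883-9986469, plus strand: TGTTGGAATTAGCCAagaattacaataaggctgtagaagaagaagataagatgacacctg
UBE2H, chr14:9948120-9964288, plus strand: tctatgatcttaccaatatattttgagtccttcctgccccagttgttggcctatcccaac
UBE2H, chr14:9964345-9969405, plus strand: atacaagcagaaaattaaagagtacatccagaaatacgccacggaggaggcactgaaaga
PSMA4, chr13:41417785-41417844, minus strand: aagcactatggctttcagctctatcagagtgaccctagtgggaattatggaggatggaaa
PSMD8, chr1:117530650-117531970, minus strand: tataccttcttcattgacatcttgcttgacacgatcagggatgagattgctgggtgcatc
PSMD11, chr9:43830487-43831070, minus strand: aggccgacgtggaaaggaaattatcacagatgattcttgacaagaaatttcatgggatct
UBE2A, chrX:94683165-94683224, plus strand: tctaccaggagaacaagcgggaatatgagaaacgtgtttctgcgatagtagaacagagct
UBE2C, chr24:36108051-36108408, plus strand: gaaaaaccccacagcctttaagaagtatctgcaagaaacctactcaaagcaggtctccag

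Of the 106 member probes, 103 were kept because they were well above background on at least 3 arrays, and they measured 64 genes. PSMB11, UBE2QL1 and UBE2R2 had no kept probe. Of the kept probes 101 were well above background in all 7 tumours, and the PSMA8 probe and a UBE2O probe in 4. In bulk tumour tissue, fewer cells of a type and less RNA per cell cannot be told apart, and this holds for every difference below. Where a gene had several kept probes, the one with the highest mean over the arrays gave its value.

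No member passed the threshold between deleted and wild-type tumours (limma, unadjusted p below 0.05 and Benjamini-Hochberg adjusted p below 0.1 over all 32309 kept probes), and neither did any other probe (0% called). The smallest adjusted p of a member was 0.583, for PSMC4. At an unadjusted p below 0.05 stood 4 of the 103 member probes (3.88%), against 7.27% of all kept probes, with 1 higher (3.1% of all kept probes) and 3 lower in deleted tumours (4.18%). The methods' t-test called 0 members and had 3 at an unadjusted p below 0.05. The groups did not overlap at 5 member probes (4.85%), those of PSMA4 and UBE2H (higher in deleted) and of PSMC4, UBE2T and UBE2W (lower), against 8.15% of all kept probes, 3.9% higher and 4.25% lower. Both shares were below that of the array as a whole.

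By class, the median log2 difference (deleted minus wild type) was 0.07 over the 12 core genes, 0.11 over the 22 regulatory genes, 0.08 over the 27 conjugating genes and -0.24 over the 3 assembly genes, beside 0.01 over all 10136 genes. Of the 64 member genes 42 had a difference above 0 (65.6%), against 52.9% of all genes. The split was 8 of 12 in the core, 13 of 22 in the regulatory, 20 of 27 in the conjugating and 1 of 3 in the assembly class. The size of the differences depended on the gene, as in the plot of the differences by gene. With normexp and scaling on the 75th percentile in place of quantile normalization, the core, regulatory and conjugating medians turned to -0.15, -0.12 and -0.13, while the median over all genes moved to 0.22. With slide as a fixed block, a fit that compares the groups only on the slide with both (deleted tumours 2 and 3 and wild-type tumour 2), the core and regulatory medians were -0.03 and -0.12, the assembly median -0.07 and the conjugating median 0.09. Among the 32 members named by rule, the same block moved the difference by more than 1.5 times or turned its sign in 19. Leaving out 1 tumour did so in 25, all but PSMC3IP, PSMC4, PSMD7, PSMD9, PSMD10, UBE2H and UBE2W.

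**Figure D1:**
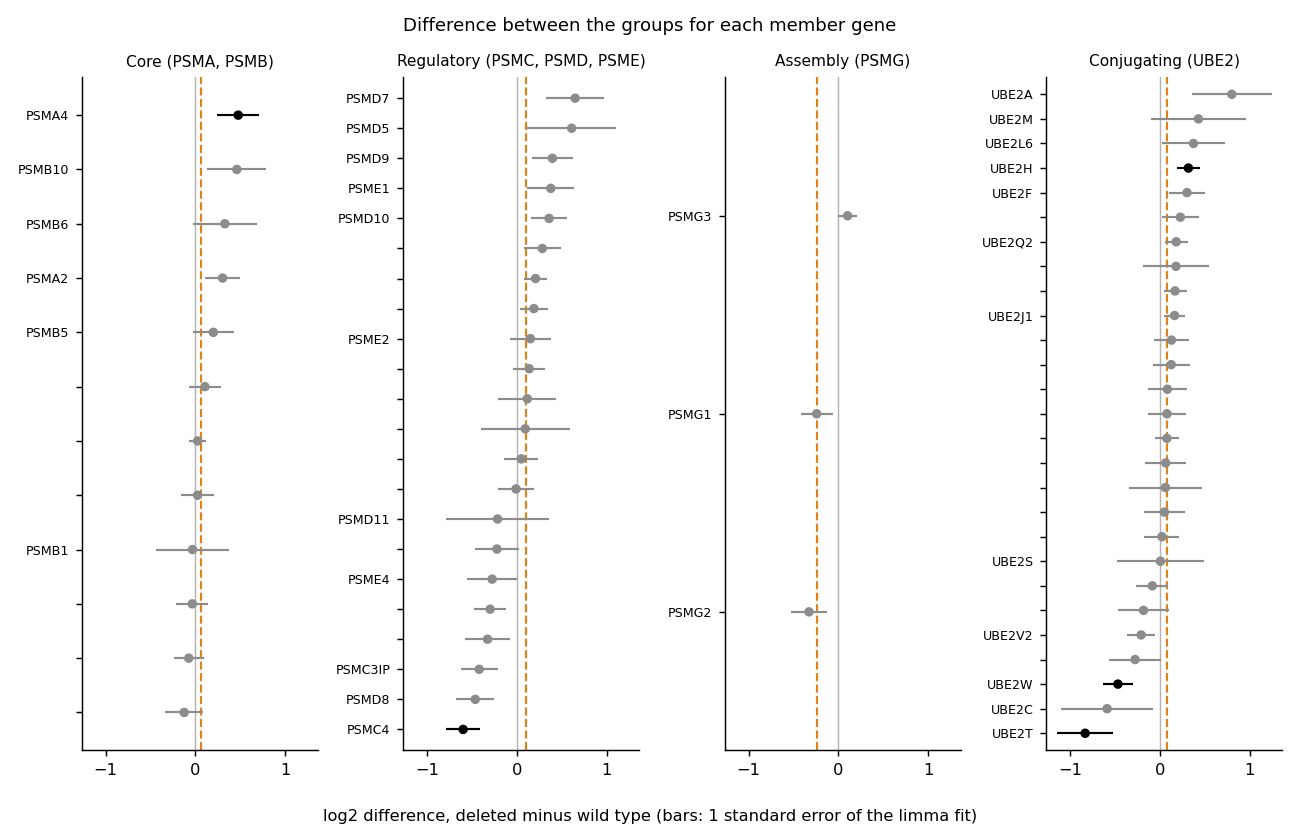
Log2 difference between deleted and wild-type tumours (x axis) for each of the 64 member genes with a kept probe, in 4 panels by class, with bars of 1 standard error from the limma fit and names beside 32 of them. Black marks the 5 genes whose groups did not overlap, the dashed line is the class median, and 42 of the 64 genes lie above 0.

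In the core particle, PSMA4, an outer-ring subunit, had the smallest p. In the order of their numbers, the deleted tumours had a log2 intensity of 11.38, 12.22, 11.26 and 11.54, and the wild-type tumours one of 10.99, 11.18 and 11.20. All deleted tumours lay above all wild-type tumours, though deleted tumour 3 and wild-type tumour 3 were only 0.06 apart on the same scale. The difference was 0.48 (SE 0.24, limma adjusted p = 0.740), and 0.27 without deleted tumour 2. An exact permutation test over the 35 splits, with the one-sided p doubled, gave p = 0.0571, the smallest this form of the test can reach here. Adjusted over the 32 members tested this way, the permutation p was 0.366. Both values were the same for the other members whose groups did not overlap. PSMA2, of the same ring, read 11.86, 11.48, 11.40 and 11.05 in deleted and 11.14, 10.99 and 11.29 in wild-type tumours. Its groups overlapped through deleted tumour 4, with a difference of 0.30 (SE 0.19, limma adjusted p = 0.816). The other PSMA genes, PSMA5, PSMA6, PSMA7 and PSMA8, differed by -0.12 to 0.03.

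Of the inner ring, PSMB6 and PSMB5 carry cutting sites of the constitutive proteasome. PSMB6 varied over a range of 1.56, from 12.82 in wild-type tumour 3 to 14.38 in deleted tumour 1, and differed by 0.33 (SE 0.35) between groups that overlapped. Without wild-type tumour 3 the difference of PSMB6 was 0.047, and with slide as a fixed block -0.40. PSMB5 ranged from 10.48 in deleted tumour 2 to 11.40 in deleted tumour 4, with a difference of 0.20 (SE 0.22). PSMB1, an inner-ring subunit without a cutting site, had the widest range of the core, 1.75, between 12.06 in deleted tumour 1 and 13.82 in deleted tumour 4. Both of its extremes were deleted tumours, and the group difference was -0.03 (SE 0.41). PSMB2 and PSMB4 differed by 0.11 and -0.03. The limma adjusted p was 0.907 or higher for PSMB6, PSMB5 and PSMB1.

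Of the ATPases that unfold the substrate, PSMC4 had the smallest p among all members. It read 12.47, 12.32, 12.11 and 11.72 in the deleted and 12.88, 12.62 and 12.75 in the wild-type tumours. The deleted tumours lay below the wild-type tumours throughout, and deleted tumour 4 was the lowest. The difference was -0.60 (SE 0.19, limma adjusted p = 0.583). With slide as a block the value was -0.41, and with a term for the extraction session -0.47. Its neighbour on chromosome 1, PSMD8, a subunit of the lid of the regulatory particle, read 11.86, 12.03, 11.61 and 11.18 in deleted and 12.14, 11.97 and 12.29 in wild-type tumours. Deleted tumour 4 was again the lowest and deleted tumour 2 crossed wild-type tumour 2. PSMD8 differed by -0.46 (SE 0.21, limma adjusted p = 0.714), by -0.30 without deleted tumour 4 and by -0.15 with slide as a fixed block. Of the other ATPases PSMC1 and PSMC2 differed by 0.28 and 0.21 and PSMC5 by -0.33. The 3 PSMC1 probes have positions on chromosomes 8 and 35, so that reads of a near-identical copy cannot be separated, and all 3 differed by 0.20 to 0.28. PSMC3IP, which is no ATPase, differed by -0.42 (SE 0.20, limma adjusted p = 0.736) with overlapping groups.

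**Figure D2:**
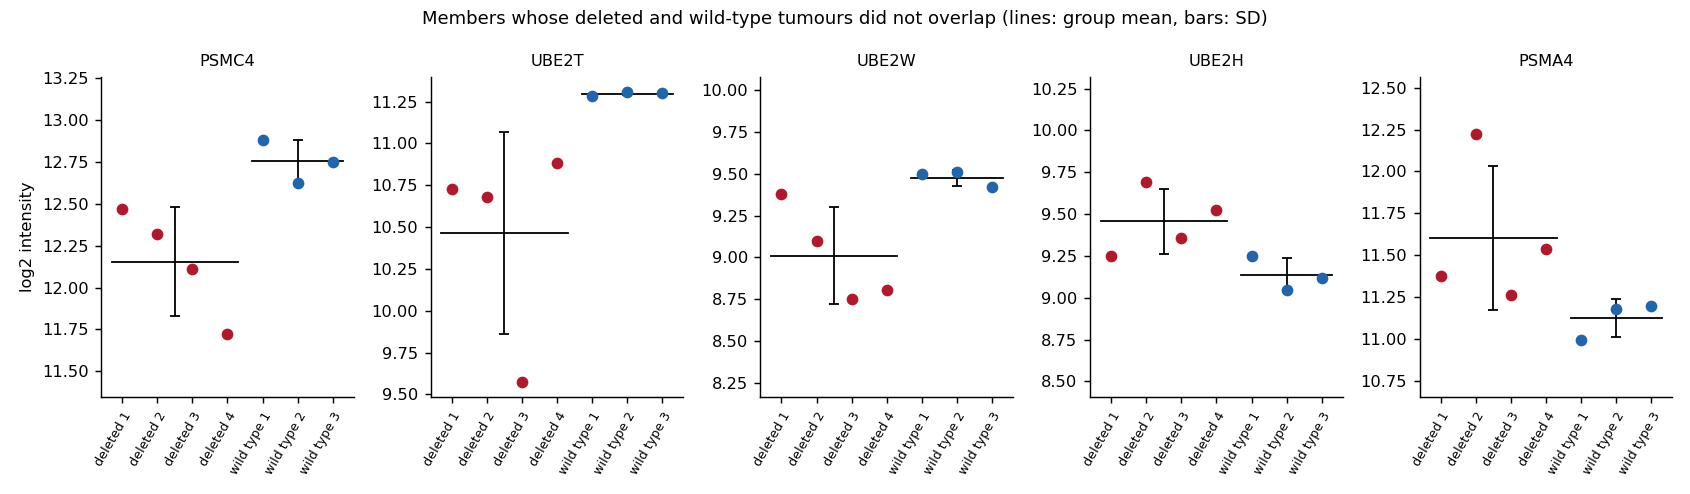
Log2 intensity (y axis, same length in each panel) in each of the 7 tumours for the 5 members whose deleted and wild-type tumours did not overlap, with the group mean as a line and the SD as a bar. PSMC4, UBE2T and UBE2W are lower and UBE2H and PSMA4 higher in the 4 deleted tumours, and deleted tumour 3 stands apart in UBE2T.

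The other regulatory subunits went in both directions. PSMD7, the lid partner of the deubiquitinase PSMD14, read 13.83, 13.44, 12.58 and 13.78 in deleted and 12.93, 12.93 and 12.41 in wild-type tumours. Deleted tumours 1, 2 and 4 lay above every wild-type tumour and deleted tumour 3 did not. The difference was 0.65 (SE 0.33, limma adjusted p = 0.748), and 0.078 with slide as a fixed block. PSMD14 differed by 0.09 on the probe with the higher mean and by -0.11 on the other, the pair printed above. The lid subunit PSMD11 had the largest range of all named members, 2.68, from 7.47 in deleted tumour 2 to 10.15 in deleted tumour 4, while its 5 other tumours lay between 8.86 and 9.45. Its difference was -0.21 (SE 0.58, limma adjusted p = 0.969).

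PSMD5, PSMD9 and PSMD10 code for chaperones that help the base of the regulatory particle to assemble and are not part of the finished particle. All 3 had a higher mean in deleted tumours, and in all 3 the groups overlapped. PSMD10 read 9.60, 9.10, 9.43 and 9.78 in deleted and 8.94, 9.00 and 9.42 in wild-type tumours, which left 0.36 between the means (SE 0.20, limma adjusted p = 0.770), and its second probe, which shares 37 bases with the first, differed by 0.34. PSMD9 differed by 0.40 (SE 0.23, limma adjusted p = 0.786), with deleted tumour 1 the lowest of the 7 at 9.60. PSMD5 differed by 0.61 (SE 0.49, limma adjusted p = 0.875), and deleted tumour 2 alone, at 12.01 against 9.83 to 10.47 in the other 6 tumours, set its mean apart. Without deleted tumour 2 the difference of PSMD5 was 0.16.

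The caps PSME1 and PSME2, the catalytic subunit PSMB10 and the enzyme UBE2L6, which conjugates the ubiquitin-like protein ISG15, are known to be induced by interferon. All 4 were highest in deleted tumour 3. PSMB10 read 11.25, 11.57, 12.13 and 10.87 in deleted and 10.99, 11.40 and 10.58 in wild-type tumours, and UBE2L6 read 8.61, 9.17, 9.80 and 8.36 against 8.39, 8.83 and 8.61. Their groups overlapped, with differences of 0.46 (SE 0.33) and 0.37 (SE 0.35). Without deleted tumour 3 these were 0.24 and 0.10. PSME1 differed by 0.38 (SE 0.26) and PSME2 by 0.15 (SE 0.23), again with overlap. The limma adjusted p of the 4 genes lay between 0.844 and 0.937.

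Beside these members, the median deviation of 14 interferon response genes from their own means was -0.46, 0.87, 0.42 and -0.84 in the deleted and -0.09, 0.39 and -0.56 in the wild-type tumours, and the group difference of that list had a median of 0.01. The list was highest in deleted tumour 2, not in deleted tumour 3. PSMB10 and UBE2L6 were above their means in deleted tumours 2 and 3 and in wild-type tumour 2, as that list was. In wild-type tumour 2 UBE2L6 lay only 0.009 above its mean. PSME1 and PSME2 deviated by -0.39 and -0.30 from their means in deleted tumour 2, where the list was highest. PSME1 was at 0.56 in deleted tumour 4 and PSME2 at 0.16 in deleted tumour 1, where the list was below 0. The leukocyte markers, 9 of 12 with a kept probe, had their highest median deviation in deleted tumour 3, at 0.61. The T cell markers CD3E and CD8A were higher in all deleted than in all wild-type tumours, by 0.51 and 0.36. Their unadjusted p was below 0.05 and their limma adjusted p 0.591 and 0.590. The B cell marker MS4A1, near background as described below, was also higher in all deleted tumours, by 0.30 (limma adjusted p = 0.562). Of all kept probes, 8.15% had groups that did not overlap and 7.27% an unadjusted p below 0.05. The other 6 leukocyte markers overlapped, among them the B cell marker CD79A, which differed by 0.10. Of the 9 markers 5 were higher and 4 lower in deleted tumours, with a median difference of 0.10. The lower ones were CD4 (-0.07), PTPRC (-0.15), CSF1R (-0.55) and CD68 (-0.74). The endothelial markers, 6 of 8 kept, also had their highest median deviation in deleted tumour 3, at 1.09. All 6 were higher in deleted tumours, with a median difference of 0.36 and overlap in each. Summed over the list, leukocyte intensity ranged from 2926 to 8883 in deleted and from 4003 to 8079 in wild-type tumours, and endothelial intensity from 8165 to 22298 and from 5927 to 9559. MS4A1 was well above background on 3 arrays, the fewest a kept probe can have. It read 6.75, 6.61, 6.65 and 6.56 in deleted and 6.39, 6.36 and 6.28 in wild-type tumours. Its difference lies near background and may rest on the group that passed that limit, so it is a description only. The part of these cells in the values of the 4 members was not tested.

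Of the other caps, PSME3 differed by 0.14. PSME4, a cap known from spermatogenesis and DNA repair, was the one gene whose probes differed in direction by more than 0.5. Its probe with the highest mean gave -0.27 (SE 0.28) and its other 4 probes 0.08 to 0.24. The former probe correlated with the others over the 7 tumours at a Pearson r of -0.02 to 0.55, and the others with each other at 0.52 to 0.95.

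The assembly chaperones PSMG1 and PSMG2 work as a pair in building the outer rings, and PSMG3 acts with a further partner. PSMG2 ranged from 10.46 in deleted tumour 2 to 11.52 in wild-type tumour 3, with the other deleted tumours at 10.85 or above, and differed by -0.33 (SE 0.20, limma adjusted p = 0.808). PSMG1 differed by -0.24 (SE 0.18) and PSMG3 by 0.10 (SE 0.11). The groups overlapped in all 3 genes, and wild-type tumour 3 was the highest of the 7 tumours in each.

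Among the conjugating enzymes, UBE2T, which acts with the Fanconi anaemia ligase in the repair of DNA cross-links, had the largest negative difference of all members. It read 10.73, 10.68, 9.57 and 10.88 in the deleted and 11.29, 11.31 and 11.30 in the wild-type tumours. The wild-type tumours were nearly equal, all deleted tumours were lower and deleted tumour 3 stood far below the others. The difference was -0.83 (SE 0.31, limma adjusted p = 0.654). Without deleted tumour 3 it was -0.53, and with slide as a block -1.18.

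UBE2C and UBE2S act in turn with the anaphase-promoting complex, UBE2C starting the ubiquitin chain and UBE2S extending it. UBE2C read 9.05, 11.19, 9.84 and 10.65 in deleted and 11.07, 10.92 and 10.31 in wild-type tumours. Deleted tumours 1 and 3 were the lowest and deleted tumour 2 the highest of the 7, so that the groups overlapped, with a difference of -0.59 (SE 0.51, limma adjusted p = 0.887). Leaving out deleted tumour 1 or deleted tumour 2 gave UBE2C differences of -0.21 and -0.92. UBE2S read 11.44, 12.20, 10.67 and 12.85 in deleted and 11.76, 11.81 and 11.78 in wild-type tumours, which left 0.01 between the means (SE 0.48) of a wide deleted and a narrow wild-type group. The second UBE2S probe had a Pearson r of 0.96 with the first over the 7 tumours. Proliferation genes, 11 of 20 with a kept probe, had median deviations of -0.70, 0.26, -0.62 and 0.15 in deleted tumours and 0.53, 0.56 and -0.20 in wild-type tumours. UBE2C deviated from its mean by -1.38, 0.75, -0.59 and 0.21 and by 0.64, 0.49 and -0.12, with the same sign as that list in all 7 tumours. UBE2T had another sign in deleted tumour 2 and wild-type tumour 3. Of the 11 genes 10 were lower in deleted tumours, with a median difference of -0.57, and 0 were called. Whether cell division accounts for the values of UBE2C and UBE2T was not tested.

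**Figure D3:**
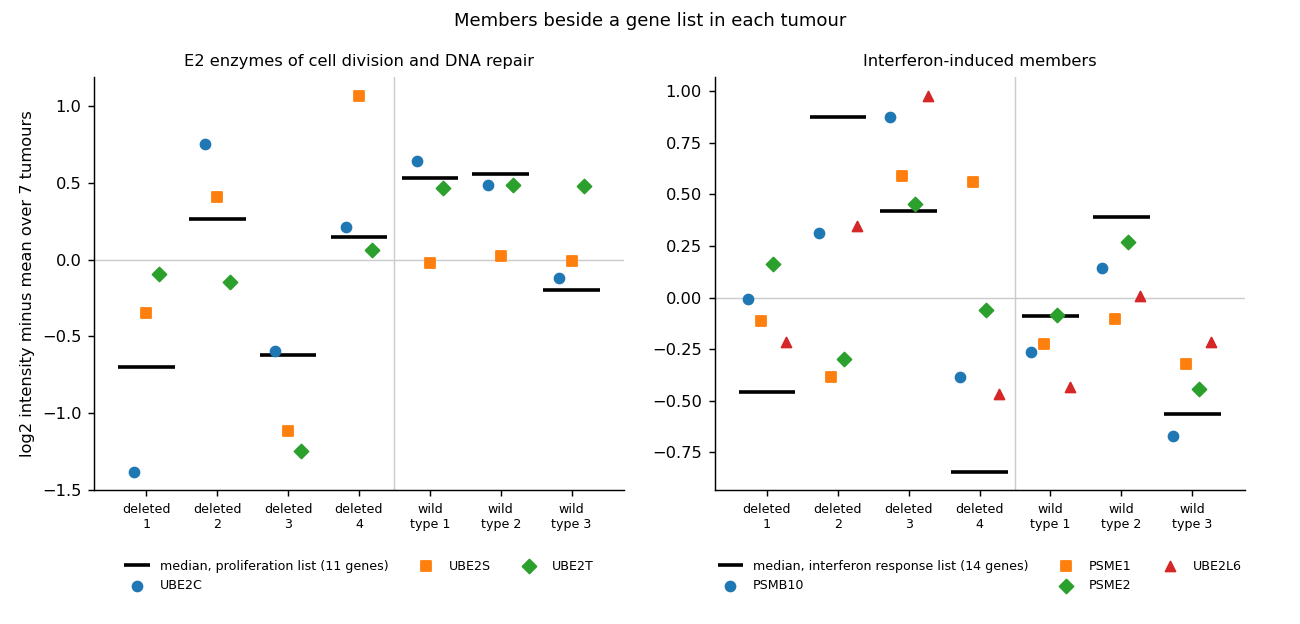
Log2 intensity minus the mean over the 7 tumours (y axis) in each tumour for UBE2C, UBE2S and UBE2T beside the median of 11 proliferation genes (left), and for PSMB10, PSME1, PSME2 and UBE2L6 beside the median of 14 interferon response genes (right). UBE2C has the sign of the proliferation list in all 7 tumours, and all 4 interferon-induced members are highest in deleted tumour 3.

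UBE2W, an enzyme that places ubiquitin on the free amino end of proteins, read 9.38, 9.10, 8.75 and 8.81 in deleted and 9.50, 9.51 and 9.42 in wild-type tumours. The groups did not overlap, but deleted tumour 1 was only 0.04 below wild-type tumour 3. The difference was -0.47 (SE 0.17, limma adjusted p = 0.634), while the other UBE2W probes differed by -0.13 and 0.01, with overlap. UBE2H, which works with a large multi-subunit ligase, read 9.25, 9.69, 9.36 and 9.52 in deleted and 9.25, 9.05 and 9.12 in wild-type tumours, which left 0.32 between the means (SE 0.13, limma adjusted p = 0.682). Deleted tumour 1 exceeded wild-type tumour 1 by less than the 2 decimals show. Its second probe, printed above, differed by 0.29 and overlapped. With slide as a block the differences of PSMA4, UBE2H and UBE2W were 0.56, 0.48 and -0.58, and with the extraction session 0.40, 0.29 and -0.37.

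UBE2A, a partner of the histone ligases, had the largest positive difference of all members, 0.80 (SE 0.44, limma adjusted p = 0.775). It read 10.62, 9.91, 10.11 and 10.48 in deleted and 8.35, 9.97 and 10.12 in wild-type tumours. Wild-type tumour 1 alone lay below the rest, and without it the difference was 0.24. UBE2M and UBE2F conjugate the ubiquitin-like protein NEDD8. UBE2M read 10.26, 11.06, 10.57 and 12.60 in deleted and 10.72, 10.61 and 10.73 in wild-type tumours. These are values of the brightest probe. Deleted tumour 4 was high on all 3 UBE2M probes, and without it the difference of 0.43 (SE 0.53) became -0.06. UBE2F differed by 0.30 (SE 0.20, limma adjusted p = 0.823), with wild-type tumour 3 the lowest at 10.66.

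The remaining named enzymes moved less. UBE2J1, which acts on proteins of the endoplasmic reticulum, differed by 0.17 (SE 0.12) and UBE2Q2 by 0.18 (SE 0.13). UBE2V2, an inactive partner that steers UBE2N towards a signalling type of chain, differed by -0.21 (SE 0.15), and UBE2N itself by -0.08. The UBE2D1 and UBE2D2 enzymes, which serve many ligases, differed by 0.08 and 0.18, and because the enzymes of this family are near-identical in sequence a probe may read more than 1 of them.

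Over the 7 tumours the 3 large classes were compared by the median deviation of their genes from each gene's own mean. The core stayed within a range of 0.23, at 0.01, -0.04, -0.11 and 0.12 in deleted and -0.06, -0.01 and -0.05 in wild-type tumours. The regulatory class ranged over 0.50, with -0.19 and -0.16 in deleted tumours 2 and 3 and 0.31 in deleted tumour 4. The conjugating class ranged over 0.26, with its lowest value, -0.08, in wild-type tumour 2 and its highest, 0.18, in deleted tumour 4. Deleted tumour 4 was the highest tumour in all 3 classes, and 19 of the 64 members (29.7%) reached their highest value there, against 18.5% of all genes. The inner ring alone was at 0.45 in that tumour and the outer ring at 0.05. The median over all genes was -0.02 there. Deleted tumour 4 also stood apart in adipocyte markers, whose median deviation was 3.12 there and -0.61 to -0.28 elsewhere. The kept marker LEP went the other way, with its lowest value, 7.96, in deleted tumour 4. LPL was higher in all deleted than in all wild-type tumours, and highest in deleted tumour 4 at 10.06. Summed over the 5 kept adipocyte markers the intensity was 15414 at most in deleted and 922 at most in wild-type tumours, and CIDEC was well above background on 3 arrays. The part of fat tissue in the member values of that tumour was not tested.

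**Figure D4:**
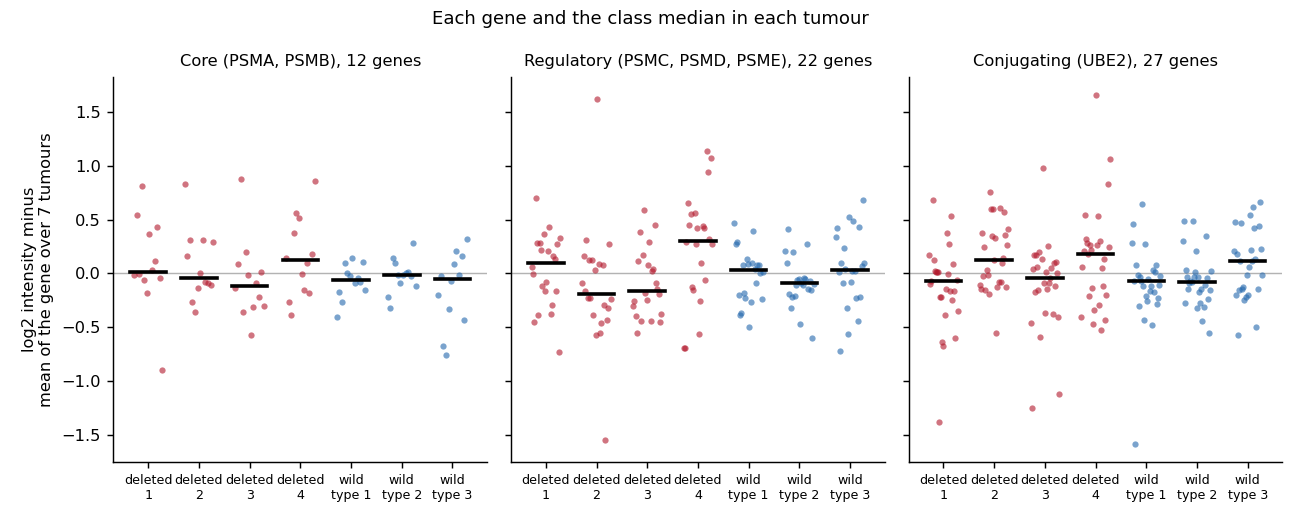
Log2 intensity minus the mean of the gene over the 7 tumours (y axis) for each gene (points) of the core, regulatory and conjugating classes, with the class median as a bar, in each tumour. The medians lie between -0.19 and 0.31, highest in deleted tumour 4 in all 3 panels, while single genes lie up to 1.66 from their mean.

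After quantile normalization the members of a class showed little common movement. The median Pearson r over pairs of genes across the 7 tumours was 0.01 within the core, 0.06 within the regulatory and 0.09 within the conjugating class, 0.07 between core and regulatory genes, and 0.00 over all pairs of genes. Each r rests on 7 points that share array, normalization and dog, so these values are descriptions. Of the core pairs 18.2% had an r above 0.5 and 10.6% one below -0.5, against 14.7% and 14.2% of all pairs. Different probes of the same gene gave a median r of 0.76 over 53 pairs in 28 genes, from -0.50 for UBE2CBP to 0.999 for the UBE2M pair of equal sequence. Of these pairs 25 had an r above 0.8, and in 17 the group differences had opposite signs. The low values within the classes depended on the scaling. With normexp and the 75th percentile the median r was 0.58 in the core, 0.44 in the regulatory and 0.17 in the conjugating class, and 0.05 over all genes. With the scanner's processed signal the core value was -0.02 or 0.07.

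Single tumours stood more than 1 log2 unit from the median of the other 6, as their highest or lowest, at 17 of the 103 member probes (16.5%), and at 16.5% of all kept probes. PSMD5 in deleted tumour 2 lay 2.03 and 1.90 above that median on 2 probes, and its remaining, dimmer probe was also highest there, at 7.22. UBE2M in deleted tumour 4 lay 1.83 to 1.93 above it on 3 probes. The lowest values relative to that median were -1.76 for UBE2A in wild-type tumour 1, -1.73 for UBE2C in deleted tumour 1 and -1.65 for PSMD11 in deleted tumour 2. Deleted tumour 4 was also the high tumour for PSMD14 (1.42 and 1.24 on its probes), PSMD11 (1.14), PSMD12 (1.10), UBE2S (1.08) and UBE2E3 (1.01). In PSMD14 and UBE2E3 wild-type tumour 3 was nearly as high, 0.39 and 0.13 lower on the PSMD14 probes and 0.16 lower for UBE2E3.

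For these members the other kept probes within 1000000 bases were read in the same tumours. Around PSMD5, on chromosome 11, the 23 neighbouring probes had a median deviation of 1.04 in deleted tumour 2, where PSMD5 was at 1.62, and of -0.43 to 0.02 in the other tumours. Around UBE2M, on chromosome 1, the median of 77 neighbouring probes was 0.33 in deleted tumour 4, with UBE2M at 1.66. Around PSMD11 it was -0.24 in deleted tumour 2 and 0.20 in deleted tumour 4, with PSMD11 at -1.54 and 1.14. The neighbours of UBE2A in wild-type tumour 1 (-0.06, with UBE2A at -1.59) and of UBE2T in deleted tumour 3 (-0.04, with UBE2T at -1.25) stayed near 0. Around PSMC4 and PSMD8 the neighbours were at -0.17 in deleted tumour 4, where both genes were at -0.69. Around UBE2W the 23 neighbouring probes were at -0.01, -0.24, -0.12 and -0.27 in deleted tumours. In wild-type tumours they were at 0.15, 0.14 and 0.17. The groups did not overlap, as at the brightest UBE2W probe, but the order within the deleted tumours differed. That probe was at -0.11 in deleted tumour 2 and at -0.46 in deleted tumour 3. The other UBE2W probes differed by -0.13 and 0.01 between the groups, with overlap. What links UBE2W and its neighbours was not tested. The copy number of these stretches was not analysed here.

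**Figure D5:**
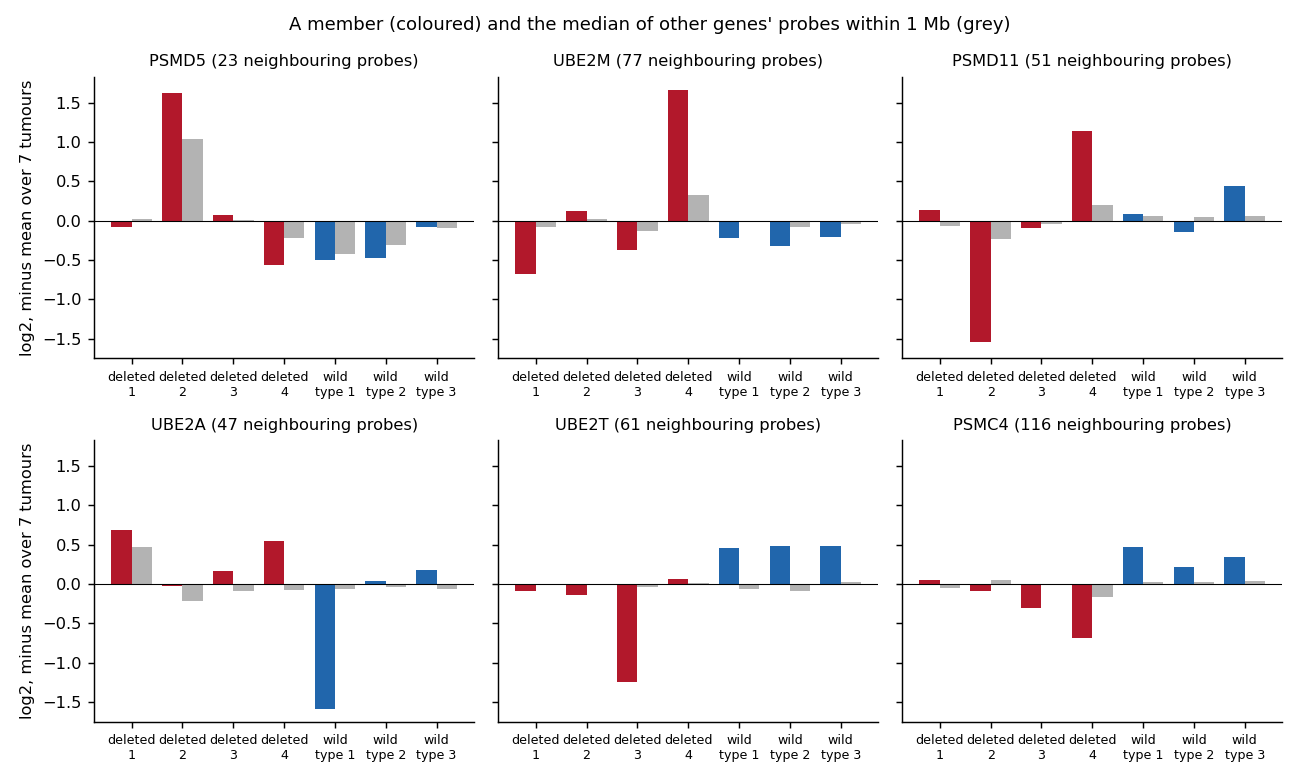
Log2 intensity minus the mean over the 7 tumours (y axis) of 6 members (coloured, red for deleted and blue for wild type) and the median of the other kept probes within 1000000 bases (grey), in each tumour. The neighbours of PSMD5 reach 1.04 in deleted tumour 2, while those of UBE2A and UBE2T stay near 0 where the member is lowest.

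Of 38 other genes of the pathway, 25 had a kept probe. Their median difference was 0.08, with 16 higher and 9 lower in deleted tumours, and 0 were called. The 1 gene at an unadjusted p below 0.05 was UCHL5, a deubiquitinase that docks on the proteasome. It read 11.02, 10.89, 10.77 and 10.45 in deleted and 11.31, 11.36 and 11.44 in wild-type tumours, without overlap. The difference was -0.59 (SE 0.15) and was not called, and 7.55% of all genes had an unadjusted p below 0.05. The 7 activating enzyme genes had a median difference of 0.13, the 9 proteasome-associated genes -0.02, and the 7 shuttles and unfolding factors 0.28, with 6 of the 7 higher. NFE2L1 and NFE2L2, transcription factors that drive proteasome genes under stress, differed by 0.46 (SE 0.25) and 0.51 (SE 0.43), with overlap in both.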

How the data were processed

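The 7 tumours were hybridised by the authors to a 1-colour (Cy3) canine array of Agilent. Per the file headers, the deposited values are linear spot intensity and local background intensity written by Agilent Feature Extraction 10.7.3.1, and the authors' own normalization and batch correction are not part of them. The mean intensity was corrected with normexp (offset 50) in limma 3.58.1 under R 4.3.3, quantile-normalized and put on the log2 scale. Control spots and 144 outlier values were dropped, spots of 50 replicated probes averaged, and 32309 of 43603 probes kept.

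Groups were compared with limma (lmFit, eBayes, two-sided, no covariates), at an unadjusted p below 0.05 and an adjusted p below 0.1, the thresholds of the methods. For 32 members an exact permutation test over the tumours was added (scipy 1.17.1). On data simulated for this comparison, 200 of the 32309 probes were changed, and 52% of them were called when the log2 change was 1 and 85% when it was 2, beside 11 and 22 false calls. The number of arrays limits the precision.

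The members and lists were chosen with earlier results of these data known. Named in the text by rule were the 5 core, 6 regulatory and 8 conjugating genes with the smallest p, the 2 genes of each class with the largest SD over the tumours, the PSMG genes, PSMB10, PSME1, PSME2, UBE2L6, UBE2C, UBE2S and UBE2T, and genes whose kept probes differ in direction by more than 0.5. Other genes were named as examples after their values were seen. Alternatives covered background correction, scaling, filters, the methods' t-test, array weights, slide, session, sex label, age and each tumour left out. Tumour numbers pair nothing. Exon and promoter annotation of canFam2 was not used here, so promoter motifs were not searched. A further member is counted in its class but not reported here by itself.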

Additional observations from a re-analysis of the deposited data

Results flagged for a closer look

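In 36 groups of 4 deleted tumours, 1 for each named member and class, the tumour farthest from its neighbour was measured by its gap over the whole range of the group. Chance alone passes the limit in about 1 of 20 groups, which is 1.8 of 36, and 2 did. UBE2T passed with a gap of 0.842 of the range, because deleted tumour 3 (9.57) lay below the other 3 (10.68 to 10.88). The median deviation of the 3 assembly genes passed with 0.866, where deleted tumour 3 was at -0.12 and the other 3 were at 0.02 to 0.05. The group difference of UBE2T had not passed the threshold, and the median difference of the assembly class was not tested.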

How the results depend on the processing

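No member was called under any alternative, including adjusted p limits of 0.05 and 0.2, and the number of member probes at an unadjusted p below 0.05 lay between 0 and 12. It was 12 with array weights, 9 with the sex label, 8 with age, 2 with wild-type tumours 1 and 2 counted as 1 tumour, and 0 without wild-type tumour 1 or with slide as a fixed block. Of 672 differences of the 32 named members under alternatives, 26 changed sign, and 23 members never did. With normexp and the 75th percentile, a scaling that moved the median of all probes to 0.32, the core median was -0.15 and the conjugating median -0.13, and PSMB6 (-0.022), PSMB5 (-0.10), UBE2F (-0.0018), PSME2 (-0.16) and UBE2S (-0.31) changed sign. Relative to the median over all genes under that scaling, the core was at -0.37, the regulatory class at -0.35 and the conjugating class at -0.35. UBE2S also changed sign with the processed signal under quantile normalization (-0.049), array weights (-0.19), slide as a random block (-0.035), session (-0.10) and slide as a fixed block (-0.38). The fixed block also turned PSMB6 (-0.40), PSMB5 (-0.062), PSME2 (-0.19) and PSMB1 (0.11), array weights (0.019) and sex label (0.057) turned PSMB1, and age turned UBE2J1 (-0.0198). The causes were not tested. Without single tumours PSMB1 ranged from -0.32 to 0.26, PSMD11 from -0.62 to 0.27, UBE2M from -0.061 to 0.72, PSME2 from -0.027 to 0.33 and UBE2S from -0.35 to 0.38. The class medians then ranged from 0.01 to 0.14 (core), -0.08 to 0.16 (regulatory), 0.03 to 0.16 (conjugating) and -0.34 to -0.12 (assembly). Leaving PSMC3IP out of the regulatory class gave 0.12 and leaving UBE2CBP out of the conjugating class gave 0.08, both chosen after seeing the data. No paired analysis was possible because the labels pair no tumours and their numbers only name them. The promoter motifs were not run.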
